A study of Mus musculus with 12 samples.

Results

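The mouse genome holds long copies of transposable elements (TEs) inside introns, and many of them lie on the strand opposite to the gene that surrounds them. The 1975 copies described here were chosen from 298593 listed TE copies by position alone. Each is longer than 5000 bp, overlaps a gene of GENCODE M21 (GRCm38), touches no exon on either strand, and lies on the strand opposite to every gene it overlaps. The list itself holds only copies with at least 10 reads over the 6 libraries, so a copy without reads in one group is listed only through its reads in the other. No other expression value entered the choice. Their length ranged from 5002 to 9924 bp, with a median of 5960 bp. All 1975 lay wholly inside their host genes, 1946 inside 1 gene and 29 inside several. They fell into 1363 host genes, of which 985 held 1 such copy and 378 held more. The median intron around a copy was 41717.5 bp long, and the median distance from a copy to the nearest exon was 7322.5 bp.

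RNA was sequenced from gonocytes, the male germ cells of the newborn testis, taken at postnatal day 0 (P0) from mice that carry the Mvh-Venus transgene, a fluorescent marker of germ cells. Libraries from Morc1 (-/-) animals, called KO, were compared with libraries from Morc1 (+/-) animals, called het, with 3 libraries in each group. The het animals thus also lack 1 working copy of Morc1, and both groups carry the reporter. Samples of postnatal day 3 were not analysed here. The kind of Morc1 allele, the strain background and whether several animals were pooled into a library are not given in the sources used here. The labels list the libraries as separate samples but do not say whether they came from separate animals, so the p-values measure the spread between these samples, which may be technical.

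Long retrotransposon copies belong mostly to LINE-1 elements and endogenous retroviruses, which move through an RNA made from a promoter at the 5' end of the element. In male gonocytes the DNA methylation of the genome is erased and then set anew, and retrotransposons are silenced in that period by DNA methyltransferases, histone methylation and small piRNAs. MORC1, an ATPase made in germ cells, is needed for the silencing of a set of retrotransposons in these cells. Intronic LINE-1 and retroviral copies are found more often on the strand opposite to their gene, where their splice and polyadenylation signals are not read as part of the gene's own transcript. The deposited TE table names no family, so the copies are given here by position, length and host gene.

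RefSeq windows around gene starts (GRCm38.p6) fell inside 4 of these copies, and the 2 with the most CpG sites are shown as examples of the letters of a copy; the other two, at Gm41595 in a Mocs1 copy and at Gm11884, hold 1 CpG site each. The windows run from 250 bases before to 50 bases after the start, and the capitals mark CpG sites, the CG pairs at which DNA is methylated, which read the same on both strands. The window of Gm36027 at chr5:111355842-111356141 (plus strand) lies in the copy at chr5:111350149-111356166 in an intron of Pitpnb, a lipid transfer protein, and its start is 74 bp from the 5' end of the copy, which is on the minus strand. It holds 7 CpG sites. The window of Gm46911 at chr5:43210612-43210911 (plus strand) lies in the copy at chr5:43208682-43216240 in an intron of Gm7854, on the same strand as the copy and 2180 bp from its 5' end, and holds 8 CpG sites.
Gm36027 start, in the Pitpnb copy: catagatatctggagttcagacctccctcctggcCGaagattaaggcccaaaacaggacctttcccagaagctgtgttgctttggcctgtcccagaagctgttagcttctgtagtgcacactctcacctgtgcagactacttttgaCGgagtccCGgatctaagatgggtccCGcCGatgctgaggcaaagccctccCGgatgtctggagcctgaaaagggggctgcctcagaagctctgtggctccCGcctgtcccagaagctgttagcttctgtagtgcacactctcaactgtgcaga
Gm46911 start, in the Gm7854 copy: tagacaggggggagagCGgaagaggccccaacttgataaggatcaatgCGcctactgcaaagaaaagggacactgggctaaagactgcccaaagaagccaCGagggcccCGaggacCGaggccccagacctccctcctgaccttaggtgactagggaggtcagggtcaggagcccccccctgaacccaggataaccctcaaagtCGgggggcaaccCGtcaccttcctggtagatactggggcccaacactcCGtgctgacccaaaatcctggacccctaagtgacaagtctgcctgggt
The Pitpnb copy had normalized counts (reads divided by a size factor of the library) of 6.33, 12.3 and 30.7 in the het libraries, in the order of their replicate numbers, and of 14.3, 15.5 and 2.57 in the KO libraries, so the groups overlapped. All triplets of values below are in that order. The Gm7854 copy had 45.4, 39.3 and 35.5 in het and 63.9, 85.1 and 70.1 in KO, without overlap, and its rise of 0.85 on the log2 scale missed the threshold (limma adjusted p = 0.201).

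The gene table held 28363683 to 32816861 reads per library, and reads on TE copies numbered 1974504 to 3703419. Morc1, the targeted gene, stood at 7248, 7485 and 4126 normalized counts in het and at 1361, 1343 and 1794 in KO, without overlap, so its RNA was lower but still present in the KO libraries. All 8 germ cell markers on the list were tested, and none was called. Summed Leydig cell markers reached 24921 normalized counts in het replicate 3, against 509.6 to 1079 in the other 5 libraries. Summed Sertoli cell markers ranged from 17255 to 35508 in het and from 12404 to 17666 in KO. None of the listed markers of other testis and blood cells passed the adjusted threshold. All 6 Sertoli cell markers had lower fitted values in KO (median log2 fold change -0.69). Of these, 3 had an unadjusted p under 0.05 (limma), and no such count was made over all genes. The part of these cells in the results was not tested. In bulk samples, fewer cells of a type and less RNA per cell cannot be told apart. The cDNA kit does not mark the strand of the RNA and the counting of strands is not given in the sources used here, so RNA of a copy, of the host intron around it and of its opposite strand cannot be told apart in any value below.

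Reads on the antisense copies were several times more frequent in KO. Summed over all 1975 copies, the het libraries had 665, 585 and 1185 reads per 1000000 gene reads, and the KO libraries 3447, 5079 and 2886. Every KO library lay above every het library, and het replicate 3, the library with the high Leydig cell markers, was the highest of its group. The means were 812 ± 326 in het and 3804 ± 1140 in KO (SD, n = 3 each), a 4.69-fold difference. As a share of all reads in the TE table the copies took 1.12% ± 0.213 in het and 3.60% ± 0.465 in KO (SD, n = 3 each). The 1131 intronic copies of the same length class on the host strand had 555, 476 and 1445 reads per 1000000 gene reads in het and 1992, 3451 and 1829 in KO, a 2.94-fold difference between means. The antisense sum did not rest on a few copies: the 10 with the most reads held 11.1% of it in het and 6.33% in KO.

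**Figure D1:**
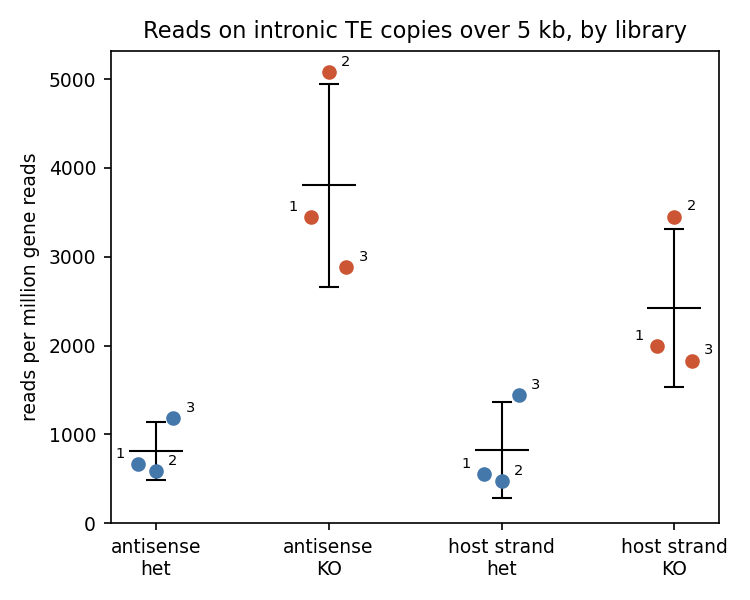
Reads on intronic TE copies over 5 kb per 1000000 gene reads (vertical axis) in each library, for the 1975 antisense copies and the 1131 copies on the host strand. Points are libraries with their replicate numbers, bars are means and whiskers are SD; the 3 KO points of the antisense copies lie between 2886 and 5079, above the 3 het points at 585 to 1185.

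Each copy was tested in a limma fit over all listed copies with a mean of at least 10 normalized counts. Of the 1975 antisense copies 1296 were tested, and 755 of them were higher in KO at an adjusted p under 0.05 (58.3%), while 4 were lower. Over all 49781 tested copies 15.6% were higher and 0.735% were lower. Tested antisense copies had a median log2 fold change of 2.42 (quartiles 1.17 and 3.21), and all tested copies one of 0.03. It was also 2.42 when the 38 tested copies with at most 3 reads in each het library were set to their lower bound. Dividing by the size factors of the gene table in place of those of the copies raises the median of all copies by 0.35 and that of the antisense copies to 2.68, and quantile normalization lowers the median of all copies by 0.44 and puts that of the antisense copies at 1.95.

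The filter on the mean over both groups lets in copies that are silent in het only where they are high in KO, and leaves out copies of moderate het level that are low in KO. Counts that do not use this filter rest on the list alone, with its minimum of 10 reads. Among all 1975 listed copies, tested or not, every KO library lay above every het library for 1053 and below it for 54. This separation upward was seen in 9.24% of all listed copies, and downward in 6.75%. Of the 1296 tested copies 941 were separated upward and 24 downward, against 22.8% and 7.58% of all tested copies. For the 790 listed copies with a het mean of at least 10 normalized counts, tested or not, every KO library lay above every het library in 447 (56.6%) and below it in 35 (4.43%), against 7.99% and 13.4% of all 48555 listed copies of that het level. Of these 790 copies 44 were not tested, all with a KO mean under 10. Among the 746 tested copies with a het mean of at least 10 normalized counts, 365 were higher (48.9%) and 4 lower, against 6.93% and 0.946% of the 38684 tested copies of that het level. Among the 679 untested copies 130 had a KO mean of at least 10, and every KO library lay above every het library in 112 and below it in 30. The shares of all untested copies separated in this way were not counted, so these numbers are not set against a background. In all, 36 of the 1975 copies had no read in any het library. Without KO replicate 1 the number of higher copies fell to 445 of those tested, and without het replicate 3, the library with the Leydig cell markers, it was 842.

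The 10 copies with the largest rises had het means of 0.748 to 14.1 normalized counts, and 9 of them had no read in at least 1 het library. After a copy in the lincRNA Gm32850 (limma log2 fold change 7.23, adjusted p = 0.000398), the largest was in Cd36. Cd36, a fatty acid transporter and scavenger receptor, holds a 5918 bp copy on the plus strand at chr5:17799092-17805009. Normalized counts of that copy were 7.38, 0 and 0 in het, against 111, 105 and 109 in KO (log2 fold change 5.75, SE 0.83, limma adjusted p = 0.00104). A 7567 bp copy in Prkcb, which encodes a protein kinase C, lies on the minus strand at chr7:122535326-122542892. It had 12.7, 0 and 29.7 in het and 376, 348 and 279.7 in KO, so its mean was 23.7-fold higher (log2 fold change 5.48, SE 0.96, limma adjusted p = 0.00277). Atp13a4, a P-type ATPase, holds a 6193 bp copy on the plus strand at chr16:29516173-29522365 with 11.6, 3.37 and 9.58 in het and 423, 391 and 171 in KO. Its KO mean was 40.1-fold the het mean (log2 fold change 5.20, SE 0.54, limma adjusted p = 0.000398). These copies were chosen among called ones with every KO library above every het library, so their lack of overlap was set by the choice.

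Other copies of this kind shared the pattern. In Nell1, a secreted protein of bone formation, the 7410 bp copy at chr7:50141964-50149373 had 4.22, 0 and 7.67 in het and 174, 194 and 83.8 in KO. In Gbe1, the glycogen branching enzyme, the copy at chr16:70552307-70559075 had 1.05, 2.24 and 0 in het and 85.8, 123 and 49.6 in KO. In Ccdc122 the copy at chr14:77070656-77077634 had 4.22, 0 and 0 in het and 97.3, 112 and 51.3 in KO. Their fitted log2 fold changes of 5.32, 5.44 and 5.59 depend on the pseudocount of 1, because the het values are near 0, and limma called all 3 (adjusted p = 0.00104, 0.000760 and 0.00108). Long noncoding hosts belong here as well. The copy in Gm4681 (chr14:120178806-120184811) had 12.7, 0 and 0 in het and 123, 143 and 65.9 in KO (limma log2 fold change 5.47, adjusted p = 0.00258). The copy in Gm30159 (chr15:63127424-63133443) had 7.38, 0 and 8.63 in het and 171, 161 and 137 in KO (limma log2 fold change 5.18, adjusted p = 0.00123). The Gm4681 call was lost with DESeq2 on the recovered reads (adjusted p = 0.0710).

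**Figure D2:**
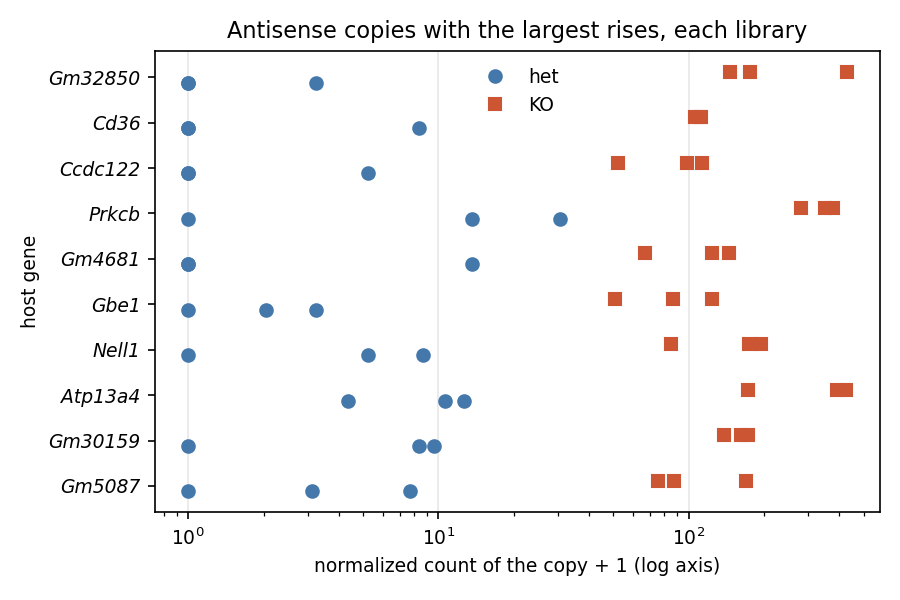
Normalized counts plus 1 (log axis) of the 10 antisense copies with the largest rises, labelled by host gene, in each of the 3 het libraries (circles) and 3 KO libraries (squares). The copies were chosen among called copies without overlap of the groups, so the KO points lie to the right of the het points by choice. Many het points sit at a count of 0.

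Several more rises lay in well-known protein-coding genes. Nalcn, the sodium leak channel of neurons, holds a 5971 bp copy at chr14:123544526-123550496 with 8.44, 6.73 and 3.83 normalized counts in het and 276, 319 and 145 in KO (38.9-fold, log2 fold change 5.06, SE 0.49, limma adjusted p = 0.000398). The copy in Hibch, an enzyme of valine breakdown, at chr1:52887736-52894121 had 7.38, 2.24 and 3.83 in het and 221, 96.0 and 182 in KO (37.1-fold, log2 fold change 4.96, SE 0.55, limma adjusted p = 0.000413). The copy in Lama2, a laminin chain of basement membranes, at chr10:27254764-27260190 had 2.11, 0 and 0 in het and 39.1, 66.6 and 43.6 in KO. Foxp2, a forkhead transcription factor, holds a copy at chr6:14960369-14966921 with 0, 0 and 1.92 in het and 53.4, 47.2 and 33.4 in KO. Both passed the limma test (adjusted p = 0.00208 and 0.00262). These 4 copies were also chosen among called copies without overlap of the groups.

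Only 4 antisense copies were called lower in KO, with het means of 65.2 to 198 normalized counts. The largest fall was in Gm5087, a noncoding gene on the minus strand of chromosome 14. Its 6525 bp copy at chr14:13160502-13167026 had 90.7, 48.2 and 56.5 in het and 10.5, 12.4 and 3.42 in KO (log2 fold change -2.86, SE 0.59, limma adjusted p = 0.00621). The same gene holds another copy of the same strand at chr14:13220921-13226166, which went the other way, from 2.11, 6.73 and 0 in het to 169, 86.7 and 74.4 in KO (log2 fold change 5.17, SE 0.77, limma adjusted p = 0.00117). Gm5087 itself had 34.3, 29.0 and 14.6 in het and 13.9, 12.4 and 20.6 in KO and was not called (limma adjusted p = 0.907). Copies in different introns of 1 gene thus moved in opposite directions in the same libraries.

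The other 3 falls were smaller. The copy in Smyd4, a SET and MYND domain gene, at chr11:75357406-75365045 had 70.7, 61.7 and 105 in het and 39.1, 21.7 and 11.98 in KO (log2 fold change -1.78, SE 0.51, limma adjusted p = 0.0329). The copy in Cntnap5b, a contactin-associated protein, at chr1:100226552-100231814 had 171, 148 and 274 in het and 45.8, 132 and 29.9 in KO (log2 fold change -1.73, SE 0.53, limma adjusted p = 0.0434). The copy in AC151280.3, a lincRNA, at chr17:68090735-68096851 had 78.0, 58.3 and 87.2 in het and 24.8, 26.3 and 34.2 in KO (log2 fold change -1.35, SE 0.42, limma adjusted p = 0.0457). The groups did not overlap in any of the 3. These calls did not hold under leaving out single libraries: the AC151280.3 call was lost without any of the 6 libraries (limma adjusted p = 0.0623 to 0.153), the Cntnap5b call without any but KO replicate 2 (0.0663 to 0.175), and the Smyd4 call without any but KO replicate 1 (0.0614 to 0.110).

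Copies with the most reads in het were not called higher. The 5 tested copies with the highest het means lay in Tmem30c, Gm9655, Mael, Vps33a and Dnah7b, with fitted log2 fold changes between -1.26 and -0.43, and none was called. These copies were chosen by their het values, and such a choice by itself favours lower values in KO. The Dnah7b copy at chr1:46071070-46077482 had 137, 153 and 519 in het and 101, 194 and 75.3 in KO, with overlap. Tmem30c belongs to a family of flippase subunits, and its 5036 bp copy at chr16:57284022-57289057 had 594, 629 and 1002 in het and 325, 494 and 270.3 in KO (limma log2 fold change -1.03, adjusted p = 0.0940), and was called lower with DESeq2 on the recovered reads (0.0228) and by limma with a mean of at least 50 (0.0336) or without a filter (0.00463). Mael encodes a germ cell protein of the piRNA pathway, and its copy at chr1:166217733-166222812 had 344, 326 and 267 in het and 159, 176 and 77.0 in KO (limma log2 fold change -1.26, adjusted p = 0.0504), and was called lower under several other settings, among them edgeR and DESeq2 on the recovered reads (0.0499 and 0.0122). The KO libraries lay below the het libraries in both copies. Mael itself was at 33596 to 48330 in het and 25715 to 37998 in KO and was not called (limma adjusted p = 0.863). In Vps33a, a subunit of a vesicle tethering complex, the copy at chr5:123539693-123545534 had 145 to 397 in het and 112 to 278 in KO, with overlap (limma adjusted p = 0.670).

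Among tested copies, chosen by the filter on the mean over both groups, the share called higher was smaller in shorter copies of the same orientation. Among shorter intronic copies antisense to their host, 1.38% of the tested copies up to 500 bp were higher in KO, 2.86% of those from 500 to 1000 bp and 7.95% of those from 1000 to 5000 bp. Just below the length limit, 226 copies of 4500 to 5000 bp were listed, and 18 of the 80 tested were higher (22.5%, median log2 fold change 0.74). Just above it, 728 copies of 5000 to 5500 bp were listed, and 214 of the 428 tested were higher (50%, median 2.11). Within the antisense copies the share was 65.6% from 5500 to 6000 bp, 53.7% from 6000 to 6500 bp, 78.0% from 6500 to 7000 bp and 67.1% above 7000 bp, so it did not climb evenly with length. The longest copies differed among themselves. The 9924 bp copy in E2f5, a cell cycle transcription factor, at chr3:14588531-14598454 had 7.38, 11.2 and 57.5 in het and 9.54, 45.7 and 0 in KO and was not called (limma adjusted p = 0.648). The 9422 bp copy in Filip1 at chr9:79899549-79908970 rose from 14.8, 25.8 and 67.1 to 662, 706 and 222 (14.8-fold, limma log2 fold change 3.94, adjusted p = 0.00119).

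On the host strand 372 of 862 tested copies were higher (43.2%) and none was lower, and their median log2 fold change was 1.83. With a het mean of at least 10, 37.3% of the tested host-strand copies were higher. Among copies above 7000 bp the order was turned, with 82.9% of 35 tested host-strand copies higher against 67.1% of 70 antisense ones. These shares stand side by side as a description, and the difference between the strands was not tested. The level of the host gene went with the share in both classes. For antisense copies it was 63.6% where the host had a het mean of 0 to 10 normalized counts, 62.7% at 10 to 100, 59.4% at 100 to 1000 and 43.2% above 1000. For host-strand copies the shares at the same host levels were 56.4%, 52.8%, 39.2% and 27.1%. The median het mean of the tested antisense copies was 9.46, 10.5, 12.3 and 17.5 at these host levels. Of the 550 antisense copies tested with a het mean under 10, which entered only through their KO values, 70.9% were higher. Shares by host level were not counted at a het mean of at least 10, so the part of the filter in them was not tested.

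**Figure D3:**
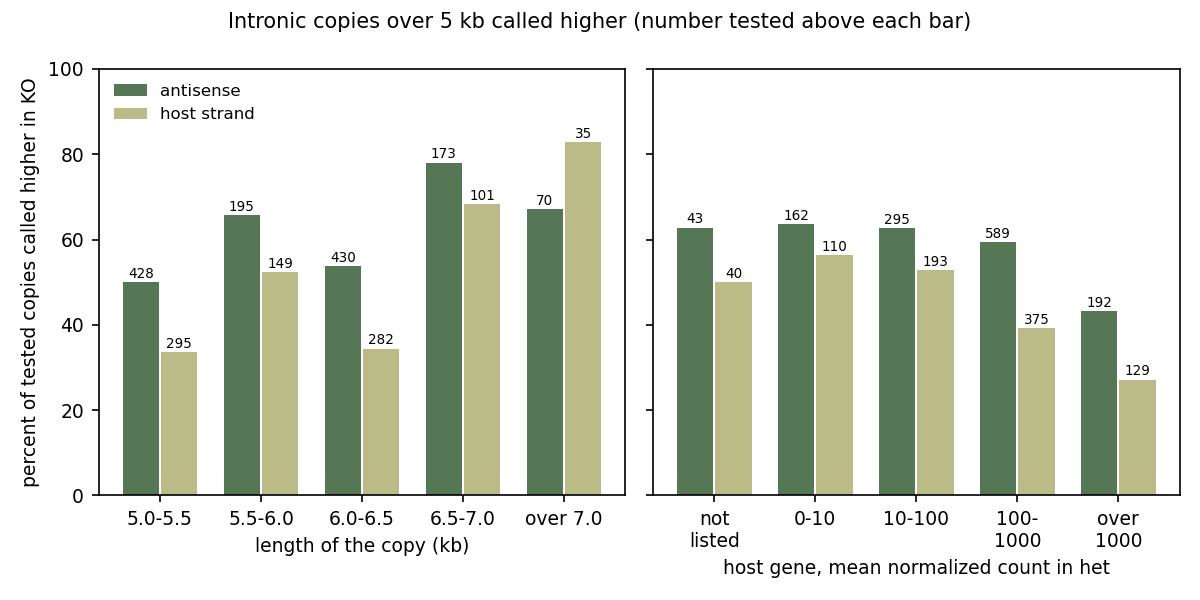
Percent of tested intronic copies over 5 kb called higher in KO (vertical axis), by length of the copy in kb (left) and by the mean normalized count of the host gene in het (right), for antisense and host-strand copies; the number above each bar is the number of copies tested. The antisense bars are taller in every bin but the longest, where 67.1% stands against 82.9%. By host level both classes are lowest for hosts above 1000. The filter on the mean over both groups enters these shares.

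The position of a copy in its host went with small differences, among tested copies and so under the same filter. The share of tested antisense copies called higher was 56.8%, 59.9%, 58.6% and 57.5% in successive parts of equal length from the start of the host gene to its end. By length of the host it was 47.5% below 50 kb, 55.5% from 50 to 200 kb and 62.9% from 200 kb on. Of the 210 copies within 1 kb of an exon, 145 were tested and 80 were higher. Hosts of all kinds held rising copies, at 57.9% of tested copies in protein-coding genes, 60.3% in lincRNAs and 58.5% in other genes. Chromosome 11 had the lowest share (42.2%) and chromosome 16 the highest (74.5%) among chromosomes with more than 1 tested copy, and the X chromosome, with 91 tested copies, stood at 58.2%.

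The hosts of the higher copies had a smaller median change than the copies. For 649 of the 755 higher copies the copy lay in 1 host that was itself tested. Of these hosts, counted once per copy, 24 were called higher and 1 was called lower, beside 0.431% and 0.0423% of all tested genes. At an unadjusted p under 0.05, 133 were higher and 11 lower (limma), and 409 (63.0%) lay within 1.5-fold of no change. The share of all tested genes at that p was not counted. Over these 649 pairs the median of the log2 fold changes was 3.08 for copies and 0.24 for their hosts, with a positive value in 441 hosts and a negative one in 208. Across the 1119 tested copies with 1 tested host, the fold changes of copy and host had a Spearman correlation of 0.156 and a Pearson correlation of 0.151. These correlations run across copies in the same 6 libraries, several copies share a host, and copies are not independent replicates.

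**Figure D4:**
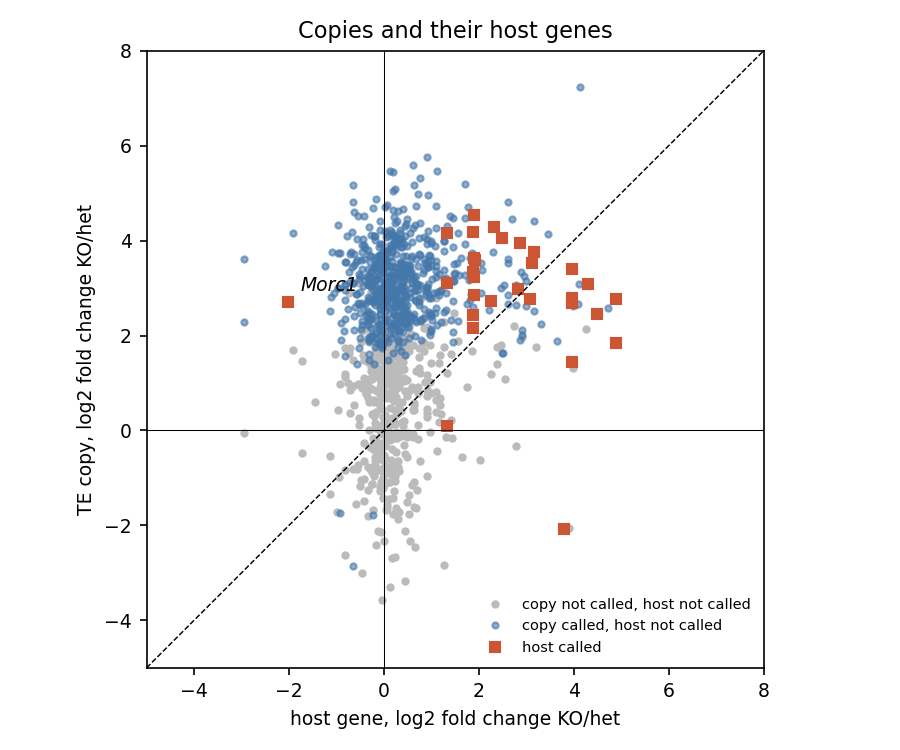
Log2 fold change KO/het of each tested antisense copy (vertical axis) against that of its single tested host gene (horizontal axis). Most called copies (blue circles) stand between 2 and 5 on the vertical axis with hosts near 0. Called hosts (squares) lie mostly at the right, and the Morc1 copy lies at the upper left. The dashed line marks equal change.

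Morc1 held the only host and copy called in opposite directions with the copy higher. The 7364 bp copy lies on the minus strand at chr16:48490648-48498011, 63.1 kb from the start of Morc1 and 735 bp from the nearest exon. It had 12.7, 30.3 and 11.5 normalized counts in het and 129, 128 and 88.1 in KO, a 6.34-fold rise without overlap of the groups (log2 fold change 2.71, SE 0.48, limma adjusted p = 0.00291). Morc1 itself fell by 2.03 on the log2 scale in the same libraries (SE 0.27, limma adjusted p = 0.0109). The call of the copy held when any 1 library was left out, while that of Morc1 did not hold without KO replicate 1, KO replicate 3 or het replicate 1 (limma adjusted p = 0.0990, 0.0623 and 0.0519). The log2 ratio of copy to host rose by 5.07 (SE 0.66, limma adjusted p = 0.0191), and this call held without het replicate 3 and was lost without any other library (limma adjusted p = 0.0592 to 0.130).

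The ratio of a copy to its host was tested directly in a limma fit over all intronic copies with 1 gene. Of 1157 antisense pairs, 189 ratios were higher in KO and 1 was lower, with a median log2 change of 2.21. Over all 21242 pairs tested, 1.69% were higher and 0.0424% lower. At an unadjusted p under 0.05, 676 of the 1157 were higher (limma), and no such count was made over all pairs. The adjusted calls were not stable: without het replicate 3 there were 319, and without any of the other 5 libraries there were 0, with 549 to 644 at an unadjusted p under 0.05 (limma). Among the rising copies named above, the ratio was called for the second copy in Gm5087 (log2 change 6.13, limma adjusted p = 0.0191), and for Cd36 (5.10, 0.0360), Ccdc122 (5.24, 0.0266), Gbe1 (5.54, 0.0191), Nell1 (4.80, 0.0414), Nalcn (5.19, 0.0239), Hibch (4.33, 0.0233), Lama2 (5.10, 0.0233) and Foxp2 (4.47, 0.0369). It missed the threshold for Prkcb (4.60, 0.0603), Atp13a4 (3.80, 0.0558), Gm4681 (5.61, 0.0668), Gm30159 (4.80, 0.0544) and Gm32850 (3.38, 0.261). The 10 protein-coding hosts among these were not called, at limma adjusted p from 0.107 for Atp13a4 to 0.962 for Nalcn. Nalcn had 143, 72.4 and 192 normalized counts in het and 137, 128 and 169.5 in KO, beside a 38.9-fold rise of its copy. Folds between means of these hosts were 3.45 for Atp13a4, 2.13 for Prkcb, 1.97 for Hibch, 1.89 for Cd36 and 1.77 for Nell1. They were 1.54 for Foxp2 and Ccdc122, 1.182 for Lama2, 1.11 for Gbe1 and 1.07 for Nalcn. The groups overlapped in Nell1, Ccdc122, Gbe1 and Nalcn and not in the other hosts. These hosts were picked through the rise of their copies, and the share of all tested genes without overlap was not counted. Prkcb itself had 650.3, 583 and 1229.8 in het and 1481, 1387 and 2382 in KO, which was not called (limma adjusted p = 0.326).

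A small number of host genes did change. Of the 1363 hosts 1262 were listed in the gene table and 1085 were tested; 24 were higher in KO (2.21%) and 1, Morc1, was lower. These shares compare with the 0.431% and 0.0423% of all 26005 tested genes. Hosts made up 4.17% of the tested genes and 21.4% of the 112 higher ones. The median log2 fold change of the tested hosts was 0.14, beside -0.02 for all tested genes. Of the 24 higher hosts 17 held at least 1 antisense copy called higher, 6 held no tested copy, and 1, A230004M16Rik, held a tested copy that was not called. Counted by copy, 24 of 29 tested copies whose only host was called higher were themselves higher (82.8%). Among all other tested antisense copies 731 of 1267 were higher (57.7%), so a higher copy was common in hosts of any kind. The difference between these shares was not tested. The number of higher hosts moved with the libraries used: it was 5 without KO replicate 3, 7 without KO replicate 1, 12 without het replicate 1 and 15 without het replicate 2.

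In several of these hosts the copy and the gene rose together. Cdh26, a cadherin, had 121, 74.4 and 63.4 normalized counts in het and 509, 574 and 797 in KO (7.26-fold, log2 fold change 2.87, SE 0.33, limma adjusted p = 0.00760). Its copy at chr2:178442269-178449053 had 25.3, 14.6 and 17.3 in het and 352, 393 and 200.2 in KO (16.5-fold, log2 fold change 3.96, SE 0.42, limma adjusted p = 0.000398). The Cdh26 call, though not that of its copy, was lost without KO replicate 3 (limma adjusted p = 0.0623). Pamr1, a secreted protein with a peptidase domain, had 247, 143 and 143 in het and 1594, 1062 and 1956 in KO (8.65-fold, log2 fold change 3.11, SE 0.32, limma adjusted p = 0.00368). The Pamr1 copy at chr2:102602899-102609706 had 16.9, 23.6 and 24.9 in het and 290.0, 308 and 193 in KO (12.1-fold, log2 fold change 3.53, SE 0.39, limma adjusted p = 0.000413). In Clca3b, of a family of chloride channel regulators, a copy at chr3:144828393-144834820 went from 25.3, 41.5 and 55.6 to 493, 539 and 412 (limma adjusted p = 0.000398), beside a 3.84-fold rise of the gene (limma adjusted p = 0.0334) that was not called without het replicate 1, het replicate 2, KO replicate 1 or KO replicate 3 (0.122 to 0.207). The copy-to-host ratio was not called for Cdh26, Pamr1 or Clca3b (limma adjusted p = 0.595, 0.928 and 0.261).

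Elsewhere the fitted rise of the host was larger than that of its copy, or the copy had hardly any reads. Cdh12, another cadherin, had 34.3, 42.5 and 18.5 in het and 667, 1079 and 1104 in KO (29.9-fold, log2 fold change 4.90, SE 0.38, limma adjusted p = 0.000577). Cdh12 holds 3 antisense copies, all tested, of which 2 were called higher. Its copy at chr15:21336096-21342574, 890.1 kb from the start, had a log2 fold change of 2.78 (SE 0.45, limma adjusted p = 0.00182). The ratio of that copy to Cdh12 was not called lower. Sult2a5, a sulfotransferase of the family that acts on steroids and bile acids, had the smallest adjusted p of all hosts. It had 15.3, 11.6 and 13.7 in het and 781, 414 and 998 in KO (54.2-fold, log2 fold change 5.57, SE 0.40, limma adjusted p = 0.000391). The Sult2a5 copy at chr7:13630507-13635936 had no read in het and 3.82, 2.32 and 24.8 normalized counts in KO, below the level for a test. Abcb11, the bile salt export pump, had 136, 125 and 121 in het and 1529, 1063 and 2979 in KO (14.6-fold, log2 fold change 3.72, SE 0.36, limma adjusted p = 0.00230). The Abcb11 copy at chr2:69312953-69318146 also had no read in het, and 11.4, 21.7 and 18.8 in KO, and was not tested. Patj, a polarity protein of tight junctions and the host with the highest het level among the 24, had 1279.7, 1423 and 999.7 in het and 3633, 3492 and 3595 in KO (2.90-fold, log2 fold change 1.55, SE 0.21, limma adjusted p = 0.0123), and neither of its 2 copies was tested. The Patj call was lost without KO replicate 1, KO replicate 3 or het replicate 1 (limma adjusted p = 0.0592 to 0.103).

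Of the other higher hosts the sulfotransferase gene Sult2a4 was 7.46-fold higher (limma adjusted p = 0.00881), Gm9733 20.5-fold (0.00119), A630010A05Rik 7.16-fold (0.00638), 2010005H15Rik 25.5-fold (0.0101) and Gm15169 21.8-fold (0.0109). The calls of Sult2a4, 2010005H15Rik and Gm15169 were lost without KO replicate 1 or KO replicate 3 (limma adjusted p = 0.0636 to 0.124), and that of A630010A05Rik without KO replicate 3 (0.0541). The copy in Gm9733 at chr3:15306698-15312121 rose 8.85-fold and that in 2010005H15Rik at chr16:36223021-36229213 rose 6.60-fold (limma adjusted p = 0.00290 and 0.0192), and the latter call was lost without any 1 of the KO libraries (0.0524 to 0.113). The remaining higher hosts, named here after their values were seen, were Lamp3, A230004M16Rik, Gm7298, C8a, Hhla1, Clca3b, Mug2, Fam19a1, Hao1, Lair1, Grid1, Pkhd1 and Fam19a4, with limma adjusted p from 0.0183 for Lamp3 to 0.0479 for Fam19a4. Each of these 13 calls was lost without KO replicate 1 and without KO replicate 3, and some without other libraries too (limma adjusted p = 0.0514 to 0.261). A230004M16Rik was the only pair with a lower ratio: the gene went from 4.77, 3.86 and 12.7 to 109, 78.5 and 117, while its copy at chr11:41733904-41740363 had 13.7, 19.1 and 62.3 in het and 1.91, 23.2 and 2.57 in KO (log2 ratio -5.57, limma adjusted p = 0.0372). That copy was not called by itself (limma adjusted p = 0.181). The call of the ratio was not stable: no antisense ratio was called lower without KO replicate 1, without KO replicate 3 or without any 1 of the het libraries.

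CpG sites were counted in RefSeq windows around the starts of the host genes, and 3 windows are shown because they span the range among higher hosts. RefSeq windows (GRCm38.p6, 250 bases before to 50 after the start) were found for 15 of the 24 higher hosts and for 799 tested hosts. The higher hosts had a median of 4 CG pairs, and 2 windows (13.3%) held 10 or more. Among all tested hosts the median was 13 and 60.7% held 10 or more, and over all 32817 windows of the table the median was 7 and 43.4% held 10 or more. For Cdh12 and Gm15169 the nearest window lay 662187 and 38271 bp from the GENCODE start, so it is not the promoter of the annotated gene start. With windows within 1000 bp of that start alone, a limit chosen after seeing the data, the median was 4 in 13 higher hosts and 15 in 667 tested hosts. A CG was found at least once in all but 5.43% of all windows. Capitals mark CG in the sequences. The Sult2a5 window (chr7:13623717-13624016, plus strand) held 0, the Abcb11 window (chr2:69342567-69342866, minus strand) 4 and the Patj window (chr4:98395576-98395875, plus strand) 25.
Sult2a5: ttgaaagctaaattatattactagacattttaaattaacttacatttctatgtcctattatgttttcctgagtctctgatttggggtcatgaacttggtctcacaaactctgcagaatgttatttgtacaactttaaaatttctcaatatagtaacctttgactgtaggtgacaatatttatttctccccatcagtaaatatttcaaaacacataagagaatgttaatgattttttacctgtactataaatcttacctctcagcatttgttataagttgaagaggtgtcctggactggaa
Abcb11: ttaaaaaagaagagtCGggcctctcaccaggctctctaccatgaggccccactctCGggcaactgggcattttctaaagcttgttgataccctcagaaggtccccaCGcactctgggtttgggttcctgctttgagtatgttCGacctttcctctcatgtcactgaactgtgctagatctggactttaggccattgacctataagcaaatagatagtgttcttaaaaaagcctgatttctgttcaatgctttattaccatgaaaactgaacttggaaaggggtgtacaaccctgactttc
Patj: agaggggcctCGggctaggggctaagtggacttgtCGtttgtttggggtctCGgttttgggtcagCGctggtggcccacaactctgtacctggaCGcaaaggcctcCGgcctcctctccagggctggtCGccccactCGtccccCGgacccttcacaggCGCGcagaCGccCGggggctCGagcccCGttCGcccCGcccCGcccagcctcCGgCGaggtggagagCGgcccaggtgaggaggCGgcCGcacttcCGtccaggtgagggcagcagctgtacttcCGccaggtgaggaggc
These 3 genes rose 54.2-fold, 14.6-fold and 2.90-fold in KO, as given above. The counts of CpG sites describe these windows, and no methylation was measured here.

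Some long genes hold many antisense copies, and there copies of 1 host parted ways. Ptprd, a receptor tyrosine phosphatase, holds 8, all tested, of which 4 were higher and none was lower. Their log2 fold changes ran from -3.57 to 3.63, while Ptprd itself had 688, 590.2 and 1365 normalized counts in het and 602, 840.0 and 1008 in KO (limma log2 fold change -0.04, adjusted p = 0.993). The copy at chr4:76728691-76734311 went from 8.44, 21.3 and 24.9 to 173, 196 and 168 (limma adjusted p = 0.000887). A copy of similar length at chr4:76804136-76809173 had 52.7, 34.8 and 27.8 in het and 49.6, 20.1 and 42.8 in KO (limma adjusted p = 0.953). A further one at chr4:77212144-77218426 had 6.33, 3.37 and 51.8 in het and is listed at 0 in all 3 KO libraries. It was not called (limma adjusted p = 0.173). Other settings called it lower: edgeR and DESeq2 on the recovered reads, and limma without trend (adjusted p = 0.0284) or without a filter (0.0288).

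The phosphodiesterase gene Pde4d holds 8 copies, 7 tested and 4 higher. Its copy at chr13:109761985-109768590 went from 11.6, 6.73 and 17.3 to 200.3, 218 and 166 (16.4-fold, limma log2 fold change 4.01, adjusted p = 0.000419), while that at chr13:109390962-109396518 had 25.3, 4.49 and 16.3 in het and 4.77, 17.0 and 15.4 in KO (limma adjusted p = 0.930). Sgcz, a sarcoglycan, holds 9, all tested, with 5 higher and log2 fold changes from -2.61 to 3.55, beside a host value of -0.81 (limma adjusted p = 0.799). Naaladl2 holds 11, the most of any host, with 6 tested and 4 higher, 3 of them with a het mean under 10. The number higher was 2 when any 1 library other than het replicate 3 was left out. Its strongest rise, at chr3:25100965-25106369, went from 9.49, 4.49 and 6.71 to 149, 141 and 103 (19.0-fold, limma adjusted p = 0.000474), and the gene stood at 48.3 to 76.3 in het and 40.2 to 57.4 in KO. In Cntnap2, a contactin-associated protein of axons, 8 copies gave 5 tested and 3 higher. All 3 had a het mean under 10, and the number higher was 2 without KO replicate 1 or KO replicate 2. A het mean under 10 was also found in 3 of the 5 higher copies of Sgcz, in 1 of 4 in Pde4d and in 0 of 4 in Ptprd. The dystrophin gene Dmd holds 9, of which 5 were tested and all 5 were higher, and 4 of these 5 had a het mean under 10 and so entered the test only through their KO values. The number higher in Dmd fell to 1 without KO replicate 1 and to 2 without KO replicate 2 or KO replicate 3 (limma). The other 4 copies in Dmd had KO means of 0.636 to 7.46 normalized counts. None of these 6 hosts was called, at limma adjusted p from 0.799 for Sgcz to 0.993 for Ptprd.

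**Figure D5:**
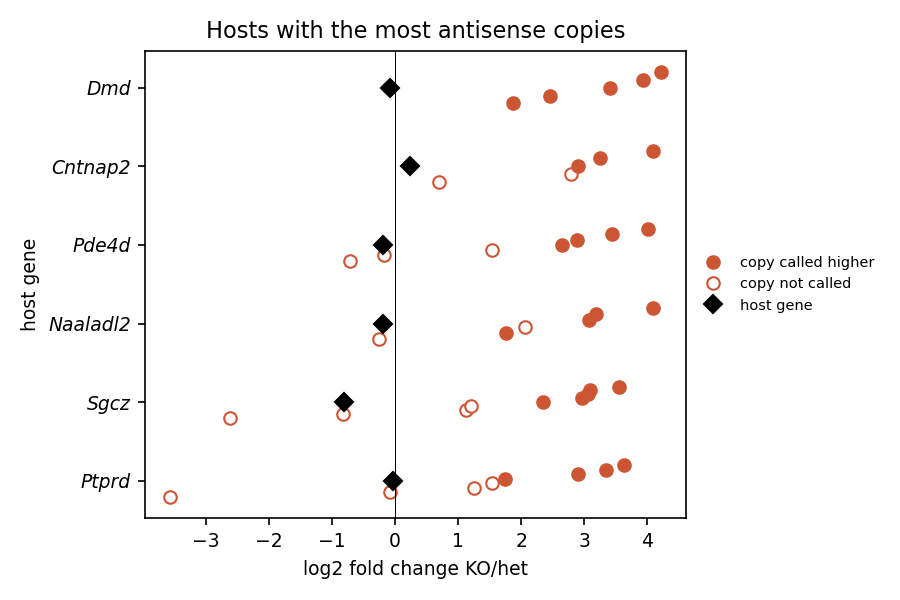
Log2 fold change KO/het (horizontal axis) of the tested antisense copies in the 6 host genes with the most such copies. Filled circles are copies called higher, open circles are copies not called and diamonds are the host genes, which stand between -0.81 and 0.23 while their copies run from -3.57 to 4.22.

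Genes that silence retrotransposons were examined in the same libraries. Of 33 listed genes 32 were tested, and Morc1 was the only one called, as lower. Their median log2 fold change was 0.02, beside -0.02 for all tested genes. At an unadjusted p under 0.05 (limma), 2 were higher, Mov10l1 and Tdrkh, and 3 lower, Morc1, Spocd1 and Gtsf1. The share of all tested genes at that p was not counted. Mov10l1, a helicase of piRNA production, had 12593, 12337 and 8582 normalized counts in het and 23526, 15170.3 and 27099 in KO (limma log2 fold change 0.95, adjusted p = 0.252). Spocd1, which links nuclear piRNAs to DNA methylation, had 12403, 12184 and 12387 in het and 9982, 4374 and 6255 in KO (limma log2 fold change -0.93, adjusted p = 0.347). Gtsf1 had a limma log2 fold change of -0.64 (adjusted p = 0.467) and Tdrkh one of 0.48 (0.645). The groups did not overlap in Mov10l1 or Spocd1, nor in Morc1, Gtsf1, Tdrkh, Tdrd5, Dnmt3a or Pphln1. How many of all tested genes show no overlap was not counted. The genes Dnmt3a, Dnmt3b, Dnmt3c and Dnmt3l, which act in de novo DNA methylation, had limma adjusted p from 0.894 to 0.939.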

How the data were processed

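The deposited gene table and TE table of the 6 P0 libraries were used. Both hold a signal made by the authors, read counts divided by 1 size factor per library: 100% of the values in each column were whole multiples of 1 step (tolerance 0.01 reads), from which reads were recovered. The TE table is named for read counts but holds such normalized values. Per the submitters' processing notes, bcl2fastq 2.20, cutadapt 1.18, HISAT2 2.1.0, featureCounts 1.5.2, DESeq2 1.26.0 and the build mm10 (GRCm38) were used, with no role given. How strand and reads that match several places were treated, and the repeat annotation, are not given in the sources used here. Reads that match several copies can move between copies.

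Copies were placed against GENCODE M21 with bedtools 2.31.1, and 35560 of 35666 listed genes were matched. Tests used limma 3.58.1 in R 4.3.3 (trend, two-sided, Benjamini-Hochberg over all tested features) on log2(normalized count + 1) for features with a mean of at least 10, without covariates. Fold changes on that scale understate the change of low features. A raw fold is a ratio of group means. Copy-to-host ratios were fitted likewise, with copy reads divided by the gene size factors. Intervals and floors of 3 reads per library cover counting error only. In tests on simulated data with a log2 change of 2, 70% of changed copies, 95% of genes and 48% of ratios were recovered. With a log2 change of 1 these were 5%, 37% and 2%, so a change of that size was mostly missed. The simulation used a fixed dispersion of 0.05 that was not estimated from these data.

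Named copies were the 10 largest rises, the falls, the 5 highest in het, the 10 largest rises in protein-coding hosts, copies in called hosts, the hosts with the most copies (6 because of a tie at 8) and the 3 longest, of which 1 is not reported here. The rises and falls were taken only from called copies in which the groups did not overlap. The members, lists and rules were chosen with earlier results of these data known. Alternatives were edgeR 4.0.16 and DESeq2 1.42.0 on recovered reads, other scalings, pseudocounts and filters, a replicate block and leaving out each library. The numbers shared by het and KO samples did not pair them, so the block was not used for the values in the report.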

Additional observations from a re-analysis of the deposited data

How the results depend on the processing

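The number of antisense copies higher in KO was 320 with a mean of at least 50, 413 for copies over 6000 bp, and 445 to 842 with 1 library left out. The number lower was 10 with DESeq2, 1 with gene size factors, 9 without a filter, 9 with quantile normalization, 2 in protein-coding hosts and 1 to 5 with 1 library left out. The percent of tested antisense copies called higher was 48.5 with edgeR, 87.2 with a mean of at least 50, 63.2 with gene size factors, 53.7 without trend, 35.9 without a filter, 47.3 and 62.6 with pseudocounts of 0.1 and 10, 46.2 with quantile normalization, 61.4 over 6000 bp, and 35.0 to 64.9 with 1 library left out. For host-strand copies it was 39.8 with DESeq2, 32.8 with edgeR, 60.5 with a mean of at least 50, 48.3 with gene size factors, 36.1 without trend, 29.1 without a filter, 36.2 and 47.9 with pseudocounts of 0.1 and 10, 29.7 with quantile normalization, and 22.1 to 53.4 with 1 library left out. The median log2 fold change of the antisense copies was 2.203 with DESeq2, 2.22 with edgeR, 3.03 with a mean of at least 50, 2.68 with gene size factors, 1.69 without a filter, 2.61 and 1.55 with pseudocounts of 0.1 and 10, 1.95 with quantile normalization, and 2.23 to 2.64 with 1 library left out. The difference in reads per 1000000 gene reads was 1822 for copies over 6000 bp and 2355 to 3452 with 1 library left out. Fewer copies enter the settings with a higher mean or length; the cause of the other shifts was not tested.

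Higher hosts numbered 78 with DESeq2, 13 without trend, 39 with a pseudocount of 10, and 5 to 24 with 1 library left out; lower hosts numbered 4 with DESeq2, 0 without trend (limma, 23 at an unadjusted p under 0.05) and 0 to 1 with 1 library left out. Copy-to-host ratios called higher numbered 18 without a filter, 13 and 328 with pseudocounts of 0.1 and 10, and 0 to 319 with 1 library left out (limma). Ratios called lower numbered 0 with a mean of at least 50, 0 without a filter, 0 and 4 with pseudocounts of 0.1 and 10, and 0 to 1 with 1 library left out (limma, 15 at an unadjusted p under 0.05 with all libraries).

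Deviations of same-numbered het and KO samples correlated at 0.146, -0.243 and -0.117 over copies, so the numbers were not taken as pairs. With the replicate number as a block, limma called 682 antisense copies higher and 3 lower, 52.6% of those tested, with 37.9% for host-strand copies. The block left 14 higher hosts, 0 higher ratios (646 at an unadjusted p under 0.05) and 0 lower ones (13).

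Among single copies that were not called, the sign turned for the Pde4d copy at chr13:109390962-109396518 with gene size factors (0.12) and with 1 library left out (-0.84 to 0.34), for the Grid1 copy at chr14:35199609-35206510 with a pseudocount of 10 (-0.11), edgeR (-0.61), DESeq2 (-0.68), quantile normalization (-0.27) and 1 library left out (-0.91 to 0.92), for the Naaladl2 copy at chr3:24289391-24294529 with gene size factors (0.076) and with 1 library left out (-0.76 to 0.22), for the Ptprd copy at chr4:76804136-76809173 with gene size factors (0.24) and 1 library left out (-0.33 to 0.30), and for the E2f5 copy at chr3:14588531-14598454 with 1 library left out (-2.48 to 0.29). Calls of named copies held in 350 of 422 fits with 1 library left out and in 612 of 677 under the other settings; calls of hosts held in 76 of 150 and in 165 of 199.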
